A study of Mus musculus with 5 samples.

Results

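The genes described here encode the nuclear subunits of the oxidative phosphorylation system of mitochondria, with a few close relatives. They were taken by symbol (Ndufa, Ndufb, Ndufc, Ndufs and Ndufv followed by a digit, Sdha to Sdhd, Uqcr, Cox4 to Cox8 and Atp5), which gave 84 of the 23951 genes in the table. Of these, 35 belong to complex I, 4 to complex II, 8 to complex III, 18 to complex IV, where Ndufa4 was placed, and 15 to complex V, and 4 are related genes that are not counted as subunits (Cox7a2l, Ndufa4l2, Atp5s and Atp5sl). The study measured poly(A)+ RNA of mouse pluripotent cells by directional RNA-seq, to ask how BMP-4, a bone morphogenetic protein, acts in different pluripotent states.

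All 5 libraries came from E14, an established mouse embryonic stem cell (ESC) line, and each group held 1 library. In the LIF and serum group, ESCs grew on gelatin with 15% fetal bovine serum and 1000 U/ml leukemia inhibitory factor (LIF). In the LIF and BMP-4 group, ESCs grew with LIF and 10 ng/ml BMP-4 in basal medium in place of serum. The other 3 libraries came from EpiSCs, epiblast stem cells made from the ESCs, which model the epiblast after implantation. These were kept on serum-coated plates in N2B27 medium with Activin A at 20 ng/ml and FGF2 at 12 ng/ml, and the treated libraries got 10 ng/ml BMP-4, lasting 1.5 h or a full 24 h, while the other was left untreated. The 2 states thus differ in medium and growth factors as well as in cell state, and the effects of these cannot be told apart. With 1 library per group there is no spread between replicates and no p-value, so differences are given as values beside those of all genes.

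Oxidative phosphorylation moves electrons from NADH and succinate along the inner mitochondrial membrane to oxygen and uses the resulting proton gradient to make ATP. Complex I takes electrons from NADH and complex II from succinate, complex III passes them to cytochrome c, complex IV (cytochrome c oxidase) reduces oxygen, and complex V is the ATP synthase. Several complex IV subunits exist as a widely expressed form and a form typical of heart and skeletal muscle, lung or testis, and naive ESCs are known to respire more than primed EpiSCs, which lean on glycolysis.

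Depth, estimated from the step that 1 read makes in low values, was about 8430000 and 8790000 reads in the ESC libraries and 9760000, 10880000 and 13360000 in the untreated, 1.5 h and 24 h EpiSC libraries, so it was lower in ESCs. All 6 naive markers were lower in every EpiSC library than in both ESC libraries (summed level 1528 and 1759 FPKM in ESCs, 3.66 to 4.30 in EpiSCs), and all 6 EpiSC markers were higher (71.9 to 72.3 against 1051 to 1176). Of 5 markers of extraembryonic endoderm, Sox17, Gata4 and Gata6 were higher in every EpiSC library, Sox7 was lower (0.532 and 0.473 FPKM in ESCs and at most 0.0275 in EpiSCs) and Afp was at most 0.0368. Summed, the 5 were at 0.889 and 1.19 FPKM in ESCs and 5.10 to 8.14 in EpiSCs. Of 5 fibroblast markers only Thy1 reached a mean of 1 FPKM, and its values overlapped between states. The collagens Col1a1, Col1a2 and Col3a1 were higher in every EpiSC library, though at most at 0.825 FPKM, and Dcn was listed at 0. In bulk samples, fewer cells of a type and less RNA per cell cannot be told apart.

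Oxidative phosphorylation transcripts were abundant and made up a nearly constant part of the transcriptome. FPKM counts fragments per kilobase of transcript relative to the mapped fragments of the library, so it can be compared between genes. The 84 genes summed to 17292 FPKM in LIF/serum ESCs, 16917 in LIF/BMP-4 ESCs, 15383 in untreated EpiSCs, 15480 after 1.5 h of BMP-4 and 15141 after 24 h. These sums were 2.71%, 2.78%, 2.64%, 2.65% and 2.61% of all FPKM in the respective libraries. Both the sum and the share were lowest in the EpiSCs, and the total over all genes was also lower in EpiSCs (579449 to 585088 against 608843 to 638146 FPKM).

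By summed level the complexes kept the same order in each library. Complex V was highest (6326 and 6251 FPKM in the ESC libraries and 5802, 5839 and 5730 in the EpiSC libraries), followed by complex I with 35 genes (4088, 4100, 3797, 3838 and 3741, in the same order of libraries), complex IV (3793, 3572, 3095, 3110 and 3122), complex III (2674, 2576, 2329, 2328 and 2207) and complex II (335, 344, 294, 299 and 278). For each complex, all 3 EpiSC sums lay below both ESC sums in the deposited FPKM, and with libraries scaled to their upper quartile this held for complexes II, III and IV while the sums of complexes I and V overlapped. Per gene, the median of the means over libraries was 331 FPKM for complex V and 270 for complex III, against 71.0 to 81.0 for complexes I, II and IV. Of the 84 genes, 81 reached a mean of 1 FPKM over the 5 libraries. The other 3 were tissue forms of complex IV subunits, Cox6a2 and Cox8b of muscle and Cox8c of testis.

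**Figure D1:**
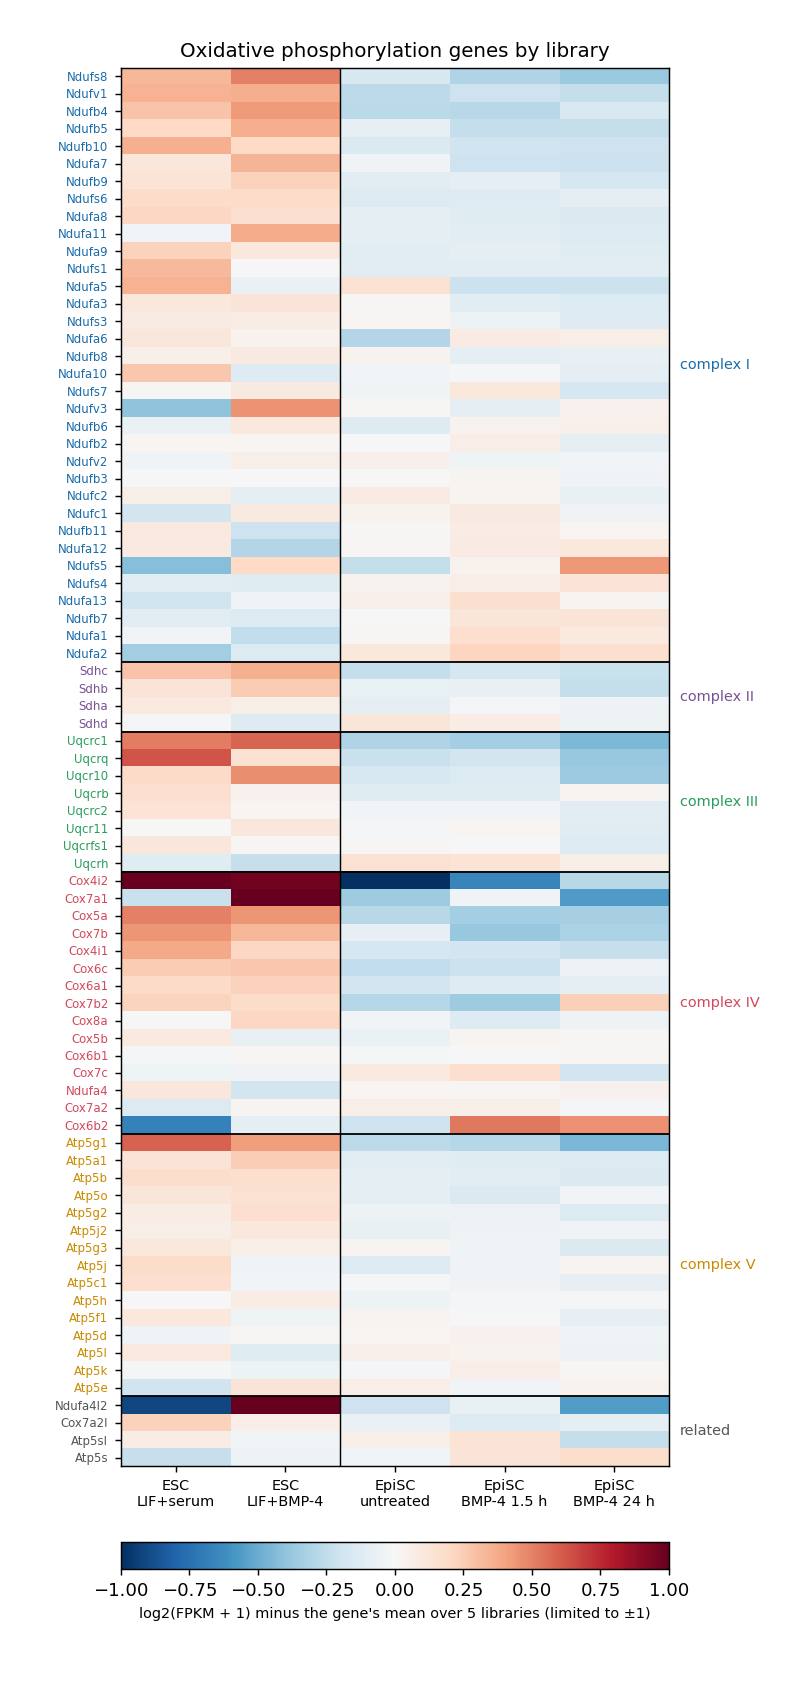
Colour shows log2(FPKM + 1) of each gene in each library minus the gene's mean over the 5 libraries, limited to ±1, for 80 genes averaging at least 1 FPKM, grouped by complex; columns are the 2 ESC and 3 EpiSC libraries. Most genes are close to their mean in each library, more are lower than higher in the 3 EpiSC libraries, and the strongest colours belong to low or tissue-type genes such as Cox4i2, Cox7a1 and Ndufa4l2.

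The promoters of these genes are known for sites of NRF1, GABPA, YY1 and the estrogen-related receptors. Promoter sequences from RefSeq (GRCm38.p6), from 250 bases before to 50 after the annotated start, matched 69 of the 84 genes and gave 75 promoters. On either strand, the letters GCGCANGCG (NRF1) occurred in 28% of them, against 14.1% of the promoters of all genes averaging at least 1 FPKM and 6.25% of all promoters. CCGGAAG (GABPA, an ETS motif) occurred in 21.3%, against 18.4% and 8.86%, AAGATGGCG (YY1) in 12%, against 3.27% and 1.40%, and TCAAGGTCA (estrogen-related receptors) in 2.67%, against 0.290% and 0.423%. At least 1 of these motifs was found in 50.7% of the promoters, against 31.8% and 15.2%. A match is a description of the letters and not a bound site, and overlapping matches of the NRF1 letters on both strands were taken as 1 promoter with a match. The YY1 letters lay in 9 of the 75 promoters and those of the estrogen-related receptors in 2. Promoters of Atp5sl, which is not counted as a subunit, overlap and share their YY1 match. Among subunits the YY1 letters lay in 7 of 71 promoters (9.86%).

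The promoters of 4 genes are printed. Cox7a1 is the muscle-type subunit that stood apart in ESCs with BMP-4. Uqcrc1 and Uqcrh are the complex III subunits that were lowest and highest in EpiSCs relative to ESCs. Cox6a1, a ubiquitous subunit, was chosen because its promoter holds several motifs. Each line gives the 250 bases before the start, 5′ to 3′ on the gene's strand, with motif matches in capitals. They lie at chr7:30183921-30184170 on the plus strand (Cox7a1), chr9:108936398-108936647 on the plus strand (Uqcrc1), chr4:116075071-116075320 on the minus strand (Uqcrh) and chr5:115348959-115349208 on the minus strand (Cox6a1), on GRCm38.p6.
Cox7a1: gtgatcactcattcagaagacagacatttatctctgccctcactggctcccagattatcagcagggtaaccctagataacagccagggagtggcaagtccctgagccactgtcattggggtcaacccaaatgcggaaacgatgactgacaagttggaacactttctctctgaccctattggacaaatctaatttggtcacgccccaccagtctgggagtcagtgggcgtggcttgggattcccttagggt
Uqcrc1: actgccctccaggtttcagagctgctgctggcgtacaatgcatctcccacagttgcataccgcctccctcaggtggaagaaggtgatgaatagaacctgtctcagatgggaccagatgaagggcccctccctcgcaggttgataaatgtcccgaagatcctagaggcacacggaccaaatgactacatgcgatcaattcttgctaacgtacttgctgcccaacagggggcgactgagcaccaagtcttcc
Uqcrh: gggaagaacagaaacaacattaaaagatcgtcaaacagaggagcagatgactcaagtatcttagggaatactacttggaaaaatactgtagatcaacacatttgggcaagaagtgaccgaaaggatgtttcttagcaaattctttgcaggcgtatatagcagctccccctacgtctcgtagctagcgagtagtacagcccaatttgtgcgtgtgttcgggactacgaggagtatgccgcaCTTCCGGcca
Cox6a1: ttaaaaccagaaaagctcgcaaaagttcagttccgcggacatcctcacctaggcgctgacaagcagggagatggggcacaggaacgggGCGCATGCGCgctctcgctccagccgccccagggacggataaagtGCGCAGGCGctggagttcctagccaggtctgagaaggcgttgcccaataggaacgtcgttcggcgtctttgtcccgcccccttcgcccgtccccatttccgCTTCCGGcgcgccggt
In Cox6a1 the capitals mark NRF1 matches beginning 162 and 117 bases before the start and a GABPA match beginning 16 bases before it. In Uqcrh they mark a GABPA match that begins 10 bases before the start. Uqcrc1 has no match in the printed bases, and its NRF1 matches begin 7 and 31 bases past the start. Cox7a1 has no match to any of the 4 motifs in its window.

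Between the states, most oxidative phosphorylation genes were slightly lower in EpiSCs, and few moved far. Differences are of log2(FPKM + 1), and folds are ratios of FPKM + 1, which understates the change of low genes. Between untreated EpiSCs and LIF/serum ESCs the median difference over the 81 genes was -0.12, with 62 genes negative and 19 positive, against a median of -0.015 over all 11005 genes averaging at least 1 FPKM and of -0.092 over those averaging at least 20 FPKM, a level that 73 of the 81 reached. No gene was at least 2-fold higher and 1, Cox4i2, was at least 2-fold lower, while 21.1% of all genes were that far apart. At 1.5-fold, 1 gene was higher (Ndufa4l2) and 6 were lower (Cox4i2, Cox5a, Uqcrc1, Uqcrq, Atp5g1 and Ndufv1), against 38.3% of all genes. Between untreated EpiSCs and LIF/BMP-4 ESCs the median was -0.13 (56 genes negative, 25 positive), against 0.0046 over all genes and -0.013 over those averaging at least 20 FPKM. There, 0 genes were higher and 3 lower (Cox4i2, Cox7a1 and Ndufa4l2) at 2-fold, against 21% of all genes, and 0 were higher and 11 lower at 1.5-fold, against 37.6%. Beside those 3, the latter were Cox5a, Uqcrc1, Uqcr10, Atp5g1, Sdhc, Ndufv1, Ndufb4 and Ndufs8. These comparisons share the untreated EpiSC library. Shares of the oxidative phosphorylation genes past either fold thus lay below those of all genes. At these folds no share was taken over genes averaging at least 20 FPKM, so the shares are not matched for level.

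Over all 5 libraries, 40 of the 81 genes (49.4%) had all 3 EpiSC values below both ESC values, against 35.7% of all genes. Conversely, 7 genes (8.64%) had all 3 EpiSC values above both ESC values, against 34.9% of all genes, and 34 overlapped. Among genes averaging at least 20 FPKM the split was 38 below and 6 above of 73 oxidative phosphorylation genes, against 40.4% and 29.0% of 3784 genes. The libraries within a state had different treatments and are not replicates. Scaling each library to its upper quartile, for which untreated EpiSCs differ by -0.12 and -0.088 on the log2 scale from the 2 ESC libraries, moved the split to 29 below and 16 above (35.8% and 19.8%), against 29.3% and 41.5% of all genes. The 29 were all among the 40, and the 7 higher genes were all among the 16. Depth, the extraembryonic endoderm markers and the collagens given before also differ between the states, and their part in these counts was not tested. By that scaling the median for untreated EpiSCs was -0.0041 against LIF/serum ESCs and -0.042 against LIF/BMP-4 ESCs. The scaling raises the EpiSC values of all genes relative to ESCs. These medians are therefore not comparable with the unscaled -0.015 and 0.0046 over all genes, and they do not show how the genes stood relative to all genes.

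**Figure D2:**
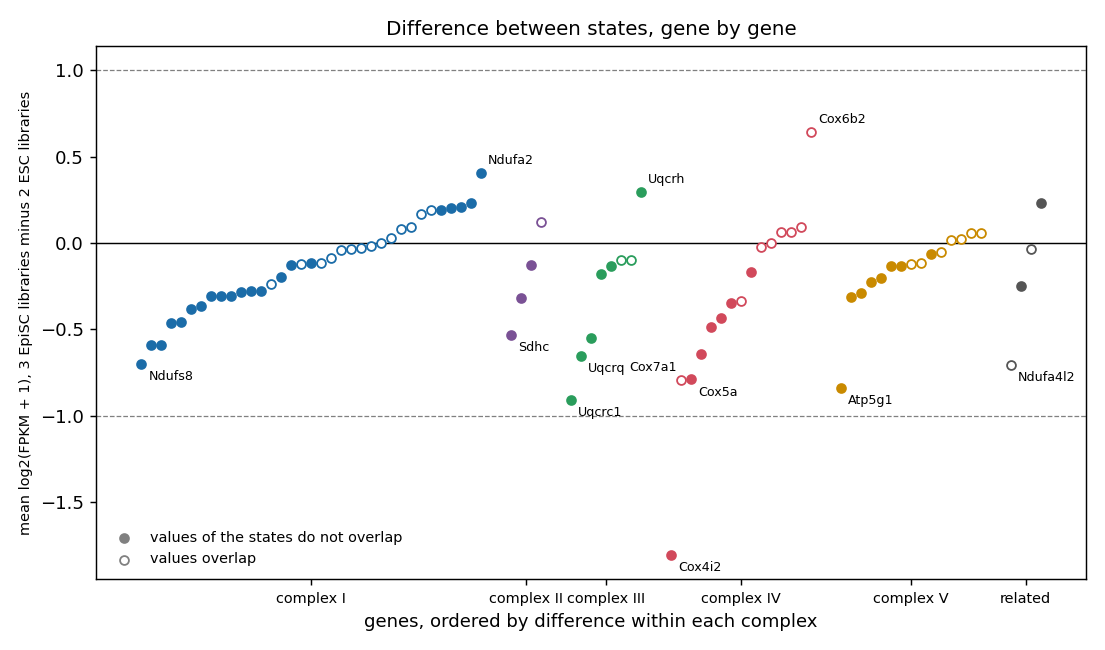
Each point is 1 gene, ordered within its complex; the vertical axis is the mean log2(FPKM + 1) of the 3 EpiSC libraries minus that of the 2 ESC libraries, and filled points are genes whose EpiSC and ESC values do not overlap. Points lie mostly between -0.91 and 0.40, with Cox4i2 lowest at -1.81 and Cox6b2 highest at 0.64, and complexes II, IV and V have no filled point above 0 in the deposited FPKM.

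In complex I, 16 of 35 subunit genes were lower in all EpiSC libraries than in both ESC libraries, 5 were higher and 14 overlapped, or 12 lower and 8 higher with upper-quartile scaling. In the deposited FPKM these were 45.7% lower and 14.3% higher, against 35.7% and 34.9% of all genes. With upper-quartile scaling, 29.3% of all genes were lower and 41.5% higher. The median difference of untreated EpiSCs was -0.077 against LIF/serum ESCs and -0.12 against LIF/BMP-4 ESCs. Ndufv1, the flavoprotein that binds NADH, was at 96.6 and 97.9 FPKM in ESCs and at 63.0, 65.5 and 64.1 in EpiSCs. Ndufs8, an iron-sulfur subunit and the one with the lowest EpiSC to ESC ratio of the complex (0.616), was at 48.9 and 55.3 FPKM in ESCs and 34.5, 31.1 and 29.6 in EpiSCs. For both genes the lowest ESC value was above the highest EpiSC value, while the deposited 95% intervals overlapped (for Ndufs8, 11.9 to 86.0 FPKM in LIF/serum ESCs and 6.05 to 63.0 in untreated EpiSCs). The iron-sulfur subunit Ndufs1 (ratio 0.826) was also lower throughout, while the values of Ndufv2 and Ndufs7 overlapped between states.

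The 5 complex I genes that were higher in EpiSCs are accessory subunits. Ndufa2 stood at 186 and 216 FPKM in ESCs and at 255, 276 and 265 in EpiSCs, a ratio of 1.32, the highest of the complex. Its locus in the table overlaps that of Tmco6, which was at 3.85 and 8.62 FPKM in ESCs and 4.91, 4.81 and 5.81 in EpiSCs. Ndufa1, Ndufa13, Ndufb7 and Ndufs4 had ratios of 1.17, 1.15, 1.15 and 1.14. Ndufa2 was the only gene of the 7 above the ESC range by at least 1.25-fold, whereas 18 of the 40 below it differed by that much. Of all genes, 3009 of the 3839 above the ESC range and 2922 of the 3925 below it differed by that much.

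Levels within complex I ranged widely although its subunits are built into 1 enzyme. Ndufb9, an accessory subunit of the membrane arm, had the highest mean, with 365 and 390 FPKM in ESCs and 308, 312 and 294 in EpiSCs. Ndufa11, also of the membrane arm, had the lowest, with 13.4 and 18.0 FPKM in ESCs and 12.7, 12.7 and 12.4 in EpiSCs. Both were lower in every EpiSC library than in either ESC library, though Ndufa11 overlapped between states with upper-quartile scaling.

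Complex II, succinate dehydrogenase, also serves the tricarboxylic acid cycle. Sdha, its flavoprotein, was at 108 and 105 FPKM in ESCs and at 94.5, 100.3 and 97.7 in EpiSCs. Sdhb, the iron-sulfur subunit, was at 141 and 154 FPKM in ESCs and 123, 122 and 109 in EpiSCs. Sdhc, a membrane anchor, was at 46.0 and 48.2 FPKM in ESCs and 31.6, 33.0 and 32.0 in EpiSCs. These 3 were lower in all EpiSC libraries, with ratios of 0.916, 0.802 and 0.690, and with upper-quartile scaling Sdha overlapped. Sdhd, the other anchor, overlapped between states, with 40.4 and 37.4 FPKM in ESCs and 44.6, 43.0 and 39.4 in EpiSCs, and with upper-quartile scaling it was higher in EpiSCs.

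Complex III held the largest difference in absolute level among its 8 genes in Uqcrc1, a core protein (chr9:108838661-108851686 on mm9). Uqcrc1 was at 481 and 505 FPKM in ESCs and at 273, 266 and 247 in EpiSCs. The ESC values were well above the EpiSC values, with a ratio of 0.532 (0.569 in untreated EpiSCs against LIF/serum ESCs). Its deposited intervals still overlapped, 290 to 671 FPKM in LIF/serum ESCs and 156 to 390 in untreated EpiSCs. The partner core protein Uqcrc2, which had the lowest mean of the complex, was at 101 and 93.1 FPKM in ESCs and 90.2, 89.8 and 85.1 in EpiSCs, so the states did not overlap but differed little, and with upper-quartile scaling they overlapped.

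Of the small subunits, Uqcrq was at 323 and 231 FPKM in ESCs and 178, 183 and 159 in EpiSCs, and Uqcr10 at 205 and 248 in ESCs and 161, 163 and 139 in EpiSCs. Uqcrh, the hinge protein next to cytochrome c1, had the opposite order, with 709 and 660 FPKM in ESCs and 861, 853 and 805 in EpiSCs (chr4:115739570-115747675 on mm9). Uqcrh was the most abundant gene of the complex and the only one above the ESC range, with a ratio of 1.23. Uqcrfs1, the Rieske iron-sulfur protein, overlapped between states (87.6 to 103 FPKM).

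In complex IV, 7 of the 15 genes that reached a mean of 1 FPKM were lower in all EpiSC libraries than in both ESC libraries and none was higher, or 6 lower and 3 higher with upper-quartile scaling. In the deposited FPKM these were 46.7% lower and 0% higher, against 35.7% and 34.9% of all genes. With upper-quartile scaling, 29.3% of all genes were lower and 41.5% higher. The ubiquitous form of subunit 4, Cox4i1, was the most abundant, with 937 and 833 FPKM in ESCs and 642, 635 and 616 in EpiSCs. Cox5a, a nuclear subunit with no tissue form, was at 271 and 260 FPKM in ESCs and 158, 151 and 151 in EpiSCs. Both lay in separate ranges by state under either scaling, with ratios of 0.714 and 0.578. Cox6a1 was at 217 and 224 FPKM in ESCs and 166, 174 and 178 in EpiSCs, Cox7b at 83.9 and 77.5 in ESCs and 58.1, 47.1 and 49.2 in EpiSCs, and Cox8a at 98.5 and 114 in ESCs and 96.8, 90.1 and 94.8 in EpiSCs. Cox8a overlapped between states with upper-quartile scaling. Cox6b1 varied little, between 438 and 449 FPKM. The median difference of the complex was -0.16 against LIF/serum ESCs and -0.38 against LIF/BMP-4 ESCs.

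Among the tissue-type forms of complex IV, Cox7a1 had the highest level relative to its ubiquitous counterpart (chr7:30969190-30971049 on mm9). Cox7a1, the heart and skeletal muscle form of subunit 7a, was at 15.9 FPKM in LIF/serum ESCs, 43.4 in LIF/BMP-4 ESCs and 14.3, 18.2 and 12.3 in the EpiSC libraries. The ESC library with BMP-4 stood above the other 4, and the states overlapped because the serum library lay within the EpiSC range. Cox7a2, the ubiquitous form, was at 52.6 and 59.2 FPKM in ESCs and 60.7, 60.6 and 57.4 in EpiSCs. Cox7a1 thus made up 23.2% and 42.3% of the summed FPKM of the 2 forms in ESCs and 19.1%, 23.1% and 17.6% in EpiSCs. The deposited intervals of Cox7a1 were wide, 0 to 94.0 FPKM with BMP-4 and 0 to 37.2 with serum. Its longest annotated transcript is under 500 nt, while its coding sequence shares no 36-base stretch with another annotated gene.

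Striated muscle markers were low, and their part in the Cox7a1 level was not tested. Of 7 such markers, 2 (Tnni3 and Actc1) reached a mean of 1 FPKM, and the 7 summed to 6.97 and 8.27 FPKM in ESCs and 4.68, 5.16 and 7.95 in EpiSCs. Tnni3, the highest of them, was at 4.59 FPKM in LIF/serum ESCs, 6.39 in LIF/BMP-4 ESCs and 1.99, 1.50 and 3.93 in EpiSCs. Its highest library was thus the one where Cox7a1 was highest. Myh6 and Tnnt2 were instead highest in LIF/serum ESCs (1.31 and 0.885 FPKM, against 1.10 and 0.230 in LIF/BMP-4 ESCs). Myh7 was highest in EpiSCs after 1.5 h of BMP-4 (0.316 FPKM, against 0.186 and 0.194 in ESCs). Actc1 was listed at 0 in both ESC libraries and was at 1.91 to 2.98 FPKM in EpiSCs. Of the defining markers, Ckm was listed at 0 to 0.0857 FPKM, and Mb was at 0.272 FPKM in LIF/BMP-4 ESCs and listed at 0 in the other libraries. The other muscle forms, Cox6a2 and Cox8b, were listed at 0 in all 5 libraries, so Cox7a1 was the muscle form that was detected.

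Cox4i2, the form of subunit 4 known from lung and from low oxygen, was at 4.40 and 3.59 FPKM in ESCs, was listed at 0 in untreated EpiSCs and was at 0.487 and 0.934 after 1.5 h and 24 h of BMP-4. ESC values were above all EpiSC values, with differences of -2.43 and -2.20 for untreated EpiSCs. No fold is given against the value at 0, and intervals reached from 0 to 19.1 FPKM in LIF/serum ESCs. Cox4i2 was at most 0.467% of the summed FPKM of subunit 4. Its locus in the table overlaps that of Bcl2l1, which was at 41.8 and 20.9 FPKM in ESCs and 25.9, 31.7 and 28.7 in EpiSCs, and the strand setting of the counting is not known here.

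The testis forms were low. Cox6b2 was at 6.06 and 9.58 FPKM in ESCs and 8.79, 15.2 and 14.5 in EpiSCs, highest in the BMP-4-treated EpiSCs, and overlapped between states. Cox7b2 was at 1.63 and 1.55 FPKM in ESCs and 0.844, 0.755 and 1.66 in EpiSCs, and Cox8c was listed at 0 except for 0.387 FPKM in LIF/BMP-4 ESCs. Cox6b2 made up 1.36% to 3.34% and Cox7b2 1.43% to 3.26% of the summed FPKM of their subunits. Of 5 male germ cell markers none reached a mean of 1 FPKM, their sum was 0 to 1.18 FPKM, and Tnp1 and Prm2 were listed at 0 throughout.

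**Figure D3:**
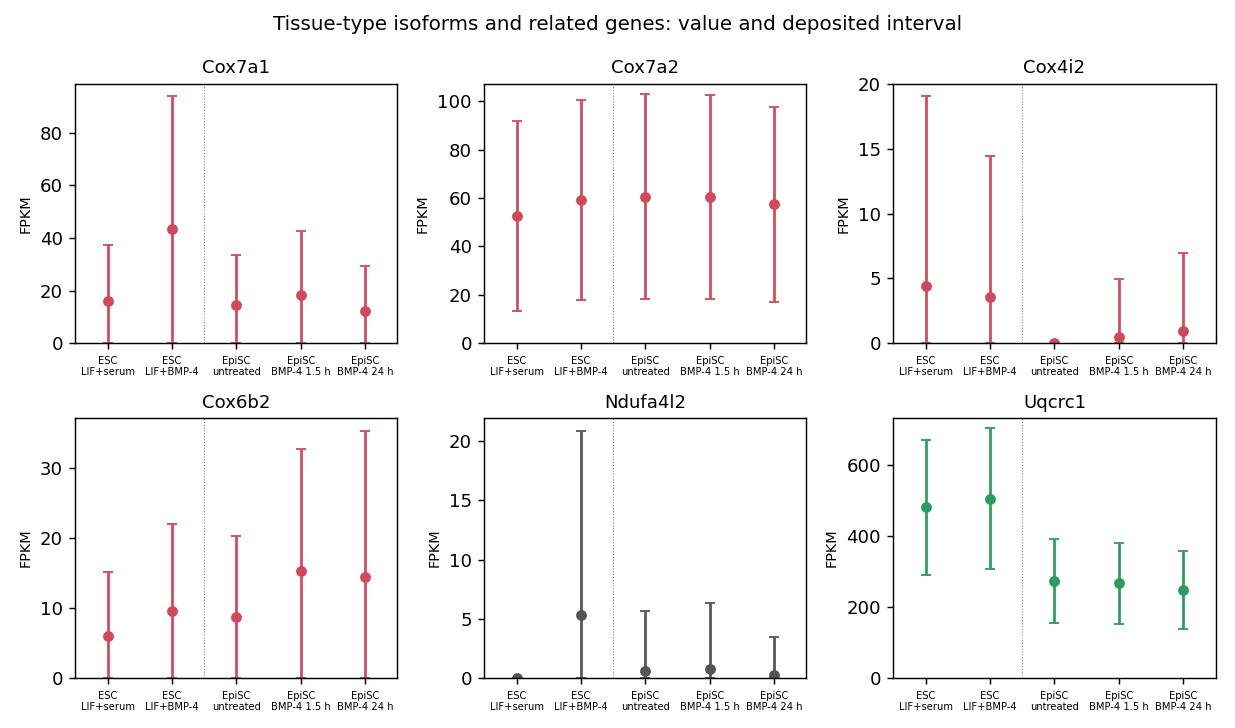
Points are the FPKM of a gene in each of the 5 libraries and bars its deposited 95% interval, for 5 isoform or related genes and Uqcrc1; each panel has its own linear axis from 0. Cox7a1 is highest in LIF/BMP-4 ESCs at 43.4 FPKM, Cox7a2 is level at 52.6 to 60.7 FPKM, and the Uqcrc1 values of 481 and 505 FPKM in ESCs are above the 247 to 273 FPKM of the EpiSCs, with bars that overlap.

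In complex V, 8 of 15 genes were lower in all EpiSC libraries than in both ESC libraries and none was higher, or 5 lower and 2 higher with upper-quartile scaling. In the deposited FPKM these were 53.3% lower and 0% higher, against 35.7% and 34.9% of all genes. With upper-quartile scaling, 29.3% of all genes were lower and 41.5% higher. Atp5b, the catalytic beta subunit, was at 1066 and 1062 FPKM in ESCs and 884, 873 and 853 in EpiSCs, and Atp5a1, the alpha subunit, was at 392 and 424 in ESCs and 330, 328 and 325 in EpiSCs. These head subunits had ratios of 0.818 and 0.804. Atp5k, subunit e of the membrane part, was the most abundant gene of the whole set and hardly varied, with 1346 and 1311 FPKM in ESCs and 1344, 1421 and 1374 in EpiSCs. Atp5e, the epsilon subunit, had the highest ratio of the complex at 1.04 (203 and 254 FPKM in ESCs, 243, 228 and 239 in EpiSCs), and its values overlapped.

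Subunit c, which forms the rotor ring, is made from 3 genes that encode the same mature protein. Atp5g1 was at 74.1 and 65.6 FPKM in ESCs and 40.5, 40.0 and 35.2 in EpiSCs, the lowest mean and the lowest ratio (0.558) of the complex. Atp5g2 was at 207 and 222 FPKM in ESCs and 190, 189 and 179 in EpiSCs, and Atp5g3 at 593 and 572 in ESCs and 560, 535 and 499 in EpiSCs. All 3 were lower in EpiSCs, Atp5g3 in the deposited scaling only, and Atp5g1 made up 8.48% and 7.64% of their summed FPKM in ESCs and 5.12%, 5.24% and 4.94% in EpiSCs. All coding 36-base stretches of Atp5g1 and of Atp5g2 also occur in other annotated genes, so how reads were divided among them is uncertain.

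Of the related genes, Cox7a2l, which takes part in joining complexes III and IV into supercomplexes, was at 54.4 and 48.5 FPKM in ESCs and 44.0, 42.0 and 43.1 in EpiSCs, below the ESC range. Atp5s was at 2.81 and 3.32 FPKM in ESCs and 3.39, 3.89 and 4.06 in EpiSCs, above it, at low levels. Atp5sl overlapped between states (14.7 to 19.3 FPKM). Ndufa4l2, a relative of Ndufa4 known to be induced in low oxygen, was listed at 0 in LIF/serum ESCs, was at 5.35 FPKM in LIF/BMP-4 ESCs and at 0.624, 0.781 and 0.275 in EpiSCs. Its interval in the highest library ran from 0 to 20.9 FPKM, and its locus overlaps that of Shmt2 (74.5 and 56.4 FPKM in ESCs and 46.5, 46.2 and 39.4 in EpiSCs). Ndufa4 itself was at 767 and 622 FPKM in ESCs and 719, 714 and 732 in EpiSCs.

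In ESCs, growth with BMP-4 in basal medium in place of serum left most of these genes at the same level. The median difference between LIF/BMP-4 ESCs and LIF/serum ESCs was -0.0050, against -0.015 over all genes. At 2-fold, 2 genes were higher (Cox7a1 and Ndufa4l2) and 0 lower, against 3.89% of all genes. Cox7a1 was 2.63-fold higher, from 15.9 to 43.4 FPKM. At 1.5-fold, 4 genes were higher and 0 lower, against 13.2% of all genes. The added genes were complex I accessory subunits. Ndufv3 went from 82.0 FPKM in serum to 149 (1.81-fold) and Ndufs5 from 13.3 to 21.1 (1.54-fold). For all 4 genes the deposited intervals overlapped. Medium and BMP-4 differ together between these libraries and cannot be told apart.

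In EpiSCs, BMP-4 was followed by little difference at either time, in these genes as over all genes. After 1.5 h the median difference to untreated EpiSCs was 0.0044, against -0.0048 over all genes, with 0 genes 2-fold apart, against 0.418% of all genes, and 1 gene 1.5-fold apart, against 1.18%. That gene was Cox6b2, 1.66-fold higher. After 24 h the median was -0.051, against -0.00092 over all genes, with 0 genes 2-fold apart, against 1.18% of all genes, and 3 genes 1.5-fold higher, against 3.94% of all genes 1.5-fold apart. The 3 were Cox4i2, Cox6b2 (1.58-fold) and Ndufs5 (1.59-fold, from 15.4 to 25.0 FPKM). Between 24 h and 1.5 h the median was -0.033, against 0 over all genes, with 0 genes 2-fold apart, against 1.04%, and 1 gene, Cox7b2, 1.51-fold higher, against 3.35%. All of these genes were at most at 25.0 FPKM in EpiSCs, and any pair of these 3 comparisons shares a library. In none of the 6 comparisons did the deposited intervals of any of the 81 oxidative phosphorylation genes lie apart. Of all 11005 genes they did for 609, 606, 23, 3, 9 and 6, in the order in which the comparisons were given here. In the comparisons within ESCs and within EpiSCs these are so few that 0 of 81 does not set the oxidative phosphorylation genes apart.

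**Figure D4:**
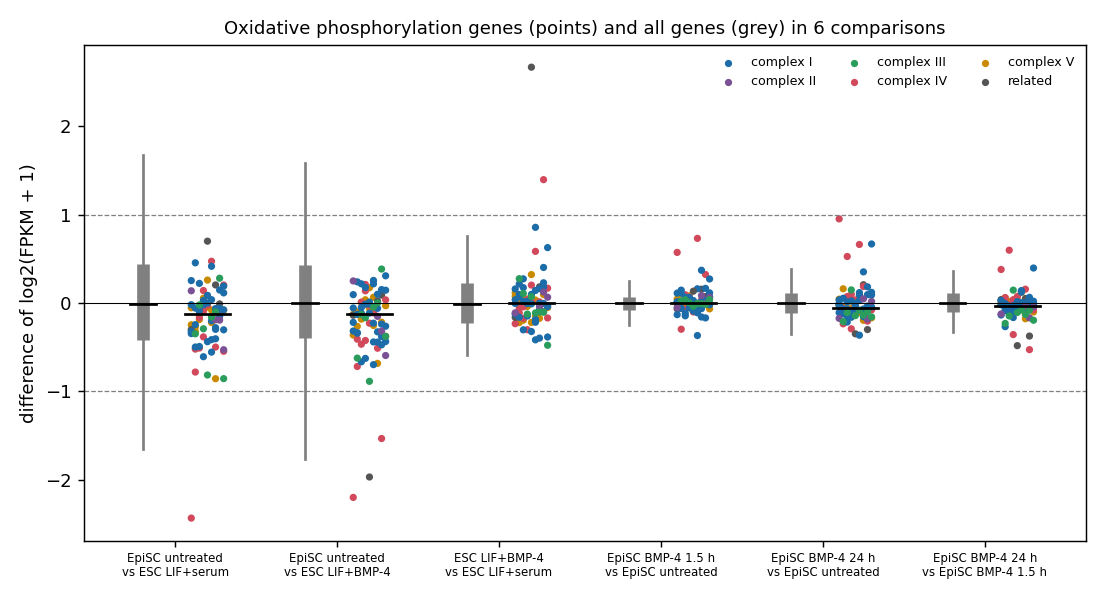
Differences of log2(FPKM + 1) in 6 comparisons: coloured points are the 81 oxidative phosphorylation genes by complex with their median as a black line, and grey boxes and lines show the middle 50% and 90% of all 11005 genes. The medians of the genes are -0.12 and -0.13 in the comparisons of states and between -0.051 and 0.0044 in the others, and the highest point is Ndufa4l2 in ESCs with BMP-4.

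Promoter motifs were set beside the state ranges for the 69 genes with a promoter. Of 29 genes lower in EpiSCs, 12 had an NRF1 match, 6 a GABPA match, 3 a YY1 match and 1 a match for estrogen-related receptors. Of 34 genes that overlapped, the numbers were 8, 8, 4 and 1, and of 6 genes higher in EpiSCs they were 0, 2, 1 and 0. At least 1 motif occurred in 18, 15 and 3 genes of these groups. Uqcrc1 and Cox6a1, printed above, are among the lower genes with an NRF1 match, while Cox5a and Atp5g1, among the lowest, have no match in the window. Cox6a1 was printed because of its motifs. The groups are small, follow the deposited FPKM and were not tested. With upper-quartile scaling several of the lower genes overlapped between states. Motif counts were not split by state over all genes, so whether these numbers are particular to this set is not known.

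The genes that the symbols leave out gave a mixed picture. Of 6 carriers and further subunits, 2 were lower and 3 higher in all EpiSC libraries, against 35.7% and 34.9% of all genes. Cycs, cytochrome c, was at 53.1 and 43.7 FPKM in ESCs and 79.8, 79.4 and 70.7 in EpiSCs, opposite in direction to Cyc1, cytochrome c1 of complex III (57.6 and 62.0 in ESCs and 46.1, 43.3 and 41.9 in EpiSCs). Cyct, the testis cytochrome c, was at 1.72 and 4.67 FPKM in ESCs and listed at 0 in EpiSCs. On the FPKM + 1 scale it was the 1 gene of the 6 that was at least 2-fold apart, lower in untreated EpiSCs than in either ESC library and higher in ESCs with BMP-4 than with serum. Of all genes, 21.1% and 21% were that far apart between untreated EpiSCs and ESCs with serum and with BMP-4, and 3.89% within ESCs. None of the 13 symbols of the mitochondrial genome was found in the table, so the subunits made in mitochondria were not analysed here.

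Of 13 complex I assembly factors, 5 were lower and 4 higher in all EpiSC libraries (38.5% and 30.8%), near the 35.7% and 34.9% of all genes. The counts were 1 and 1 of 2 for complex II, 0 and 0 of 3 for complex III, and 0 and 1 of 3 for complex V. Of 15 complex IV assembly factors, 8 were lower and 2 higher (53.3% and 13.3%). With upper-quartile scaling the counts were 7 and 3, against 29.3% and 41.5% of all genes. Cox14 was at 17.7 and 18.7 FPKM in ESCs and 8.04, 13.6 and 12.6 in EpiSCs. It was the 1 assembly factor at least 2-fold apart in a comparison, lower in untreated EpiSCs than in both ESC libraries. Of all genes, 21.1% and 21% were that far apart in the comparisons with LIF/serum and LIF/BMP-4 ESCs.

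Among regulators of mitochondrial genes, 9 of the 14 at a mean of 1 FPKM were lower and 2 higher in all EpiSC libraries. These were 64.3% and 14.3%, against 35.7% and 34.9% of all genes. With upper-quartile scaling the counts were 8 and 2, against 29.3% and 41.5% of all genes. Esrrb, an estrogen-related receptor and also a naive marker, was at 132 and 92.1 FPKM in ESCs and 0.706, 0.400 and 0.346 in EpiSCs. Epas1 was at 5.63 and 5.46 FPKM in ESCs and 0.310, 0.163 and 0.121 in EpiSCs, and Tfb1m, a mitochondrial transcription factor, at 10.4 and 9.83 in ESCs and 4.51, 6.87 and 5.46 in EpiSCs. These 3 were at least 2-fold lower in untreated EpiSCs than in LIF/serum ESCs, and Esrrb and Epas1 also than in LIF/BMP-4 ESCs. Of all genes, 21.1% and 21% were at least 2-fold apart in these comparisons. Gabpa was at 71.1 and 67.9 FPKM in ESCs and 37.0, 37.8 and 36.8 in EpiSCs, in a locus that overlaps Atp5j. The 2 higher regulators were Esrra and Hif1a. Esrra, another estrogen-related receptor, was at 3.20 and 6.05 FPKM in ESCs and 7.30, 7.69 and 8.46 in EpiSCs. Hif1a was at 50.1 and 47.1 FPKM in ESCs and 74.7, 71.0 and 67.4 in EpiSCs. Ppargc1a was listed at 0 in all 5 libraries.

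In the tricarboxylic acid cycle, 7 of 14 genes were lower and 3 higher in all EpiSC libraries, against 35.7% and 34.9% of all genes. With upper-quartile scaling the counts were 7 and 4, against 29.3% and 41.5% of all genes, and the summed levels overlapped between states. Only Idh2 of the 14 was at least 2-fold apart (31.4 and 51.9 FPKM in ESCs and 11.8, 12.9 and 12.2 in EpiSCs). It was lower in untreated EpiSCs than in either ESC library, comparisons where 21.1% and 21% of all genes were that far apart. Of 19 glycolysis genes, 7 were lower and 9 higher (36.8% and 47.4%). With upper-quartile scaling these were 7 and 10, against 29.3% and 41.5% of all genes. In untreated EpiSCs, 5 were at least 2-fold higher and 3 lower than in LIF/serum ESCs, against 21.1% of all genes in either direction. Against LIF/BMP-4 ESCs, 1 was higher and 4 lower, where 21% of all genes were that far apart. Slc16a3, a lactate exporter, was at 2.35 and 15.9 FPKM in ESCs and 58.7, 62.9 and 53.2 in EpiSCs, and Tpi1, triosephosphate isomerase, at 138 and 416 in ESCs and 624, 652 and 600.4 in EpiSCs. Pdk1, which restrains pyruvate entry into mitochondria, was at 28.3 and 66.1 FPKM in ESCs and 12.3, 13.7 and 11.9 in EpiSCs, and Pfkp at 33.6 and 47.8 in ESCs and 8.45, 8.29 and 7.86 in EpiSCs. In LIF/BMP-4 ESCs against LIF/serum ESCs the 19 glycolysis genes had a median difference of 0.50, with 16 positive and 3 negative. Of them 4 were at least 2-fold higher and 0 lower, against 3.89% of all genes, and 8 were at least 1.5-fold higher and 0 lower, against 13.2%. In the 3 comparisons within EpiSCs, 0 genes of any of these lists were 2-fold apart, against 0.418%, 1.18% and 1.04% of all genes.

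Short and repeated coding sequences limit several of these values. Of the 84 genes, 40 share no coding 36-base stretch with another annotated gene (GENCODE M21), and 15 share at least 50%, among them Atp5g1, Atp5g2, Atp5l, Cox7c and Ndufb4 with all of theirs. Of the genes the results turn on, Cox7a1 shares none, Uqcrc1 0.854%, Cox5a 18.6% and Uqcrh 26.7%. The locus of 12 genes overlaps another gene in the table. Without the genes that share at least 50%, 32 of 66 were below and 7 above the ESC range, and without the genes whose locus overlaps another, 36 of 70 were below and 5 above, alternatives chosen after seeing the data.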

How the data were processed

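RNA-seq libraries of 2 ESC and 3 EpiSC cultures were used as deposited. The authors' values are FPKM per gene with 95% lower and upper bounds, per the file headers. Reads were processed with TopHat, Cufflinks 2.0.13, Picard and SAMtools on mm9, per the submitters' processing notes; for annotation, filters, scaling between libraries and counting strand, the choice is not given in the sources used. An exact 0 can be a failed estimate and is written as listed at 0.

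Differences of log2(FPKM + 1) were taken in 6 comparisons over the 11005 genes averaging at least 1 FPKM and a status of OK in all libraries (8 genes of the table failed the status, none of them an oxidative phosphorylation gene), with Python 3.11.15, pandas 2.3.3 and NumPy 2.4.6, and counted at 2-fold and 1.5-fold. The state counts ask whether all 3 EpiSC values lie outside the range of the 2 ESC values, and state ratios compare means of log2(FPKM + 1). The calculation was tested on simulated data. Depth is approximate and comes from whole-read steps below 0.5 FPKM in genes with 1 transcript longer than 1500 nt. FPKM intervals cover the uncertainty of 1 library, and their upper bound lay a median of 60.3% to 63.1% above the value in the 5 libraries.

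Genes, lists (complexes, isoform pairs, carriers, assembly factors, regulators, tricarboxylic acid cycle, glycolysis, mitochondrial genome and cell type markers) and rules were chosen with earlier results of these data known. Values in every library are given for all tissue-type isoforms, genes 2-fold apart in any comparison, the Sdh genes, and in each complex the genes highest and lowest by mean and by state difference; other genes named in the text, such as Ndufv1, Cox5a, Uqcrq and Atp5b, were chosen after their values were seen. From other lists, up to 4 genes at least 2-fold apart were taken, and Cycs, Cyc1, Gabpa, Esrra and Hif1a were added after their values were seen. Locus starts, counted from 0 in the file, were raised by 1, and "Uqcc" and "Pkm2" were found as Uqcc1 and Pkm by RefSeq synonyms. Alternatives were pseudocounts of 0.1 and 5, no filter or means of 5 or 20 FPKM, median centring, upper-quartile scaling and leaving out related, short, repeated or overlapping genes. The values of 1 complex I gene are not reported here, although it is part of the counts.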

Additional observations from a re-analysis of the deposited data

How the results depend on the processing

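Of the medians, 1.5-fold counts and numbers of genes outside the other state's range, 128 values under the alternatives stayed close to the reported one and 15 moved. The number outside the range, taken without direction, stayed close under upper-quartile scaling, but its split moved from 40 below and 7 above to 29 below and 16 above. Over all genes the split moved from 35.7% below and 34.9% above to 29.3% and 41.5%. With upper-quartile scaling the median for untreated EpiSCs against LIF/serum ESCs was -0.0041, that against LIF/BMP-4 ESCs was -0.042 and the 1.5-fold count against LIF/BMP-4 ESCs was 7. That scaling raises the EpiSC values of all genes relative to ESCs, so the scaled medians do not show how the genes stood relative to all genes. The count for LIF/BMP-4 ESCs against serum was 2 at a mean of at least 20 FPKM. For EpiSCs after 1.5 h it was 2 with a pseudocount of 0.1, 2 with upper-quartile scaling, and 0 with a pseudocount of 5 or a mean of 20 FPKM. For 24 h against untreated it was 5 with a pseudocount of 0.1, and 0 with a pseudocount of 5 or a mean of 20 FPKM. For 24 h against 1.5 h it was 3 with a pseudocount of 0.1, and 0 with a pseudocount of 5, a mean of 5 or 20 FPKM, or median centring. The cause was not tested, except that a higher mean leaves fewer genes. The mean of 20 FPKM was chosen after seeing the data. Medians near 0 changed sign, between -0.036 and 0.026 for BMP-4 against serum in ESCs and between -0.0024 and 0.016 after 1.5 h. With a pseudocount of 5, Cox4i2 (-0.91 and -0.78 in untreated EpiSCs against ESCs with serum and with BMP-4) and Ndufa4l2 (-0.88 against ESCs with BMP-4) were less than 2-fold apart. With 1 library per group no replicate can be left out. No paired analysis was possible because no group has more than 1 library and the labels carry no replicate numbers.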
